A study of Mus musculus with 30 samples.

Results

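MPP1 cells of the mouse bone marrow were compared between mice in which Mettl3 had been deleted and mice that kept it. The comparison rests on 6 of the 30 samples of the series, chosen by their labels as the bulk RNA-seq libraries of sorted MPP1. The 3 Mettl3KO libraries came from Mx1-Cre; Mettl3 fl/fl mice and the 3 WT libraries from Mettl3 fl/fl mice without Cre. All 6 mice therefore carried floxed Mettl3 and had been given pIpC, a synthetic double-stranded RNA, 3 weeks before collection. Mx1-Cre is driven by the interferon response that pIpC sets off, and it acts in many cell types besides blood progenitors, the marrow stroma and liver among them. WT mice had the same treatment but no Cre, so an effect of Cre itself cannot be told apart from that of losing Mettl3. MPP1 was the Lin-;Sca1+;c-Kit+;CD150-;CD48- gate. The replicates of a group were separate mice, and whether a mouse also gave cells to the other sorted populations is not stated. The other bulk libraries, 3 per genotype of MPP2 (CD150+;CD48+), HSC (CD150+;CD48-) and MPP4 (CD150-;CD48+), share the fit and serve to show where MPP1 differs. The sources used here do not give the age and sex of the mice.

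METTL3 is the enzyme that methylates adenosines inside messenger RNA to N6-methyladenosine (m6A), working as a pair with METTL14 and with the adaptors WTAP, RBM15 and ZC3H13. Reader proteins of the YTH family bind the mark, and many marked transcripts are degraded faster through YTHDF2. The CD150- CD48- gate holds multipotent progenitors just downstream of the stem cell, with short-lived power to rebuild blood and little lineage commitment.

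The MPP1 libraries held 29045705 to 42123802 counts, within the 28896498 to 55276836 of all 24 bulk libraries. Levels are CPM, counts scaled to a common TMM-adjusted library total, and each log2 fold change sets Mettl3KO over WT and is given with its standard error. A gene is called changed, and said to have risen or fallen, at a Benjamini-Hochberg adjusted p under 0.05 in edgeR's quasi-likelihood test over all 15545 genes tested. An exact permutation test of 3 libraries against 3 cannot give a two-sided p below 0.1. These are bulk samples, so fewer cells of a type and less RNA per cell cannot be told apart. Some MPP1 libraries stood apart. Mettl3KO replicate 2 was rich in RNA of mature neutrophils: the summed level of 10 neutrophil markers was 628, 68149 and 109 CPM in Mettl3KO libraries, against 939, 579.6 and 4166 CPM in WT libraries. S100a9 and Ngp, abundant neutrophil proteins, had the highest CPM in that library after the ribosomal precursor Rn45s. On the 1000 most variable genes, Mettl3KO replicate 3 lay far from the others on the first principal component (35.1% of the variance) and Mettl3KO replicate 2 on the second (30.4%). Both had low quality weights in limma, 0.276 for replicate 2 and 0.252 for replicate 3, against 1.08 for Mettl3KO replicate 1 and 0.61 to 1.77 for WT. WT replicate 3 had the highest sum of immediate early genes and WT replicate 1 that of macrophage markers.

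**Figure D1:**
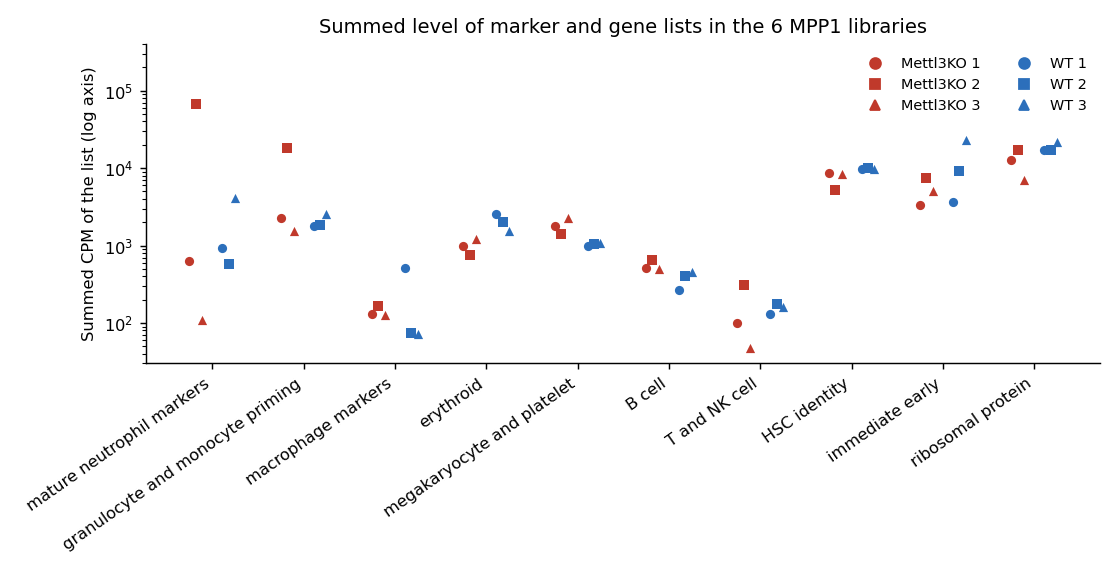
Summed CPM (log axis) of 10 gene lists in each of the 6 MPP1 libraries, with Mettl3KO in red left of WT in blue and 1 symbol shape per replicate number. Mettl3KO replicate 2 stands far above the other 5 libraries for neutrophil markers, and the Mettl3KO and WT libraries overlap for that list.

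The sort gate was checked against its own genes. Kit, the c-Kit receptor, had 607, 185 and 1107 CPM in Mettl3KO and 536, 561 and 648 CPM in WT, and Ly6a, which encodes Sca1, had 1279, 1350.1 and 1072 CPM in Mettl3KO and 1164, 1185 and 1259.9 CPM in WT. Slamf1 (CD150) had 4.22, 3.11 and 1.95 CPM in Mettl3KO and 3.42, 2.097 and 2.804 CPM in WT, and Cd48 had 18.3, 33.5 and 10.5 CPM in Mettl3KO and 31.4, 21.4 and 19.3 CPM in WT. Groups overlapped for all 4 genes and none was called (adjusted p = 0.89 for Slamf1 and 0.73 for Cd48). Kit was lowest in the neutrophil-rich library. The counts of Kit and Ly6a were all even numbers. Of 5 lineage antigens tested, none rose and 2 fell (0% and 40%, against 4.74% and 3.89% of all genes tested). Cd4, a T cell co-receptor, had 0.0746, 0.0676 and 0 CPM in Mettl3KO and 10.4, 3.44 and 1.52 CPM in WT (log2 fold change -6.71 ± 1.68, adjusted p = 0.018), and Cd5, another T cell antigen, had 0 in all Mettl3KO libraries and 0.4601, 0.122 and 0.119 CPM in WT (adjusted p = 0.03). WT replicate 1 was the highest for both. Fits without 1 library ended the calls of Cd4 (without Mettl3KO 3 or WT 1, adjusted p up to 0.064) and Cd5 (without Mettl3KO 1, Mettl3KO 2, Mettl3KO 3 or WT 1, adjusted p up to 0.091). Cd3e and Cd8a were at or near 0 in every library. Itgam, the CD11b of myeloid cells, had 41.2, 311 and 51.8 CPM in Mettl3KO and 46.2, 42.04 and 60.6 CPM in WT, with Mettl3KO replicate 2 again apart.

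Mettl3 RNA was reduced in every Mettl3KO library. The gene (chr14:52294841-52305128, minus strand, GRCm38, GENCODE vM21) had 12.7, 12.6 and 11.9 CPM in the 3 Mettl3KO libraries, against 36.5, 31.6 and 36.7 CPM in the 3 WT libraries. The mean was 12.4 ± 0.473 CPM in Mettl3KO and 34.9 ± 2.89 CPM in WT. All Mettl3KO values lay below all WT values (log2 fold change -1.49 ± 0.18, adjusted p = 7.1e-05). The call held when any single MPP1 library was left out. The sources used here do not give the exons that Cre removes, so reads from the rest of a shortened transcript may still be counted.

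The rest of the m6A machinery changed in both directions. Of 11 writer genes tested, 3 rose and 3 fell, Mettl3 included, where 4.74% of all tested genes rose and 3.89% fell. Rbm15 (chr3:107325421-107333673, minus strand), the adaptor that brings the complex to its RNA sites, had 47.7, 39.03 and 31.5 CPM in the 3 Mettl3KO libraries, against 9.89, 7.12 and 8.08 CPM in the 3 WT libraries. Its groups lay far apart (log2 fold change 2.24 ± 0.27, adjusted p = 4.4e-05), and the call held under every alternative run. Wtap, the scaffold that keeps METTL3 and METTL14 in nuclear speckles, fell, with 26.7, 33.96 and 19.1 CPM in Mettl3KO and 77.9, 56.7 and 49.9 CPM in WT (log2 fold change -1.21 ± 0.22, adjusted p = 0.0024). Zc3h13, which anchors the complex in the nucleus, rose with a smaller gap, with 81.6, 90.4 and 103 CPM in Mettl3KO and 62.04, 48.5 and 38.5 CPM in WT (log2 fold change 0.88 ± 0.22, adjusted p = 0.017). Mettl16, a separate writer acting on U6 snRNA, rose with a log2 fold change of 0.51 ± 0.16 (adjusted p = 0.049), and Mettl5, which methylates 18S rRNA, fell with a log2 fold change of -0.77 ± 0.23 (adjusted p = 0.044). Mettl14, the partner of METTL3, had 25.9, 21.2 and 22.3 CPM in Mettl3KO and 30.7, 30.1 and 24.1 CPM in WT; its groups overlapped and it was not called (log2 fold change -0.29 ± 0.21, adjusted p = 0.4). Rbm15b, the relative of Rbm15, was not called either (log2 fold change 0.76 ± 0.31, adjusted p = 0.13). Single libraries ended the calls of Zc3h13 (without Mettl3KO 3, WT 2 or WT 3, adjusted p up to 0.081), Mettl16 (without Mettl3KO 1, Mettl3KO 3, WT 1, WT 2 or WT 3, adjusted p up to 0.15) and Mettl5 (without Mettl3KO 3, WT 1, WT 2 or WT 3, adjusted p up to 0.16).

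Among 13 readers, erasers and related binders, 3 rose and none fell (23.1% and 0%, against 4.74% and 3.89% of all genes tested). Ythdf2, which recruits the deadenylation machinery to m6A RNA, had 322, 168 and 439 CPM in the 3 Mettl3KO libraries, against 137, 133 and 108 CPM in the 3 WT libraries. The lowest Mettl3KO library still lay above the highest WT one (log2 fold change 1.299 ± 0.27, adjusted p = 0.0057). Ythdc1, the nuclear reader, was steadier, with 137, 141 and 138 CPM in Mettl3KO and 63.8, 72.3 and 73.8 CPM in WT (log2 fold change 0.99 ± 0.17, adjusted p = 0.0016). Ythdf1, a cytoplasmic reader linked to translation, rose with overlapping groups (log2 fold change 0.88 ± 0.26, adjusted p = 0.044). Single libraries decided the call of Ythdf1 (without Mettl3KO 1, Mettl3KO 3, WT 1, WT 2 or WT 3, adjusted p up to 0.2). Neither demethylase was called: Fto had 74.7, 50.5 and 96.4 CPM in Mettl3KO and 61.2, 62.3 and 74.4 CPM in WT (log2 fold change 0.16 ± 0.27) and Alkbh5 61.01, 46.7 and 56.2 CPM in Mettl3KO and 96.8, 63.7 and 51.2 CPM in WT (log2 fold change -0.37 ± 0.29).

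**Figure D2:**
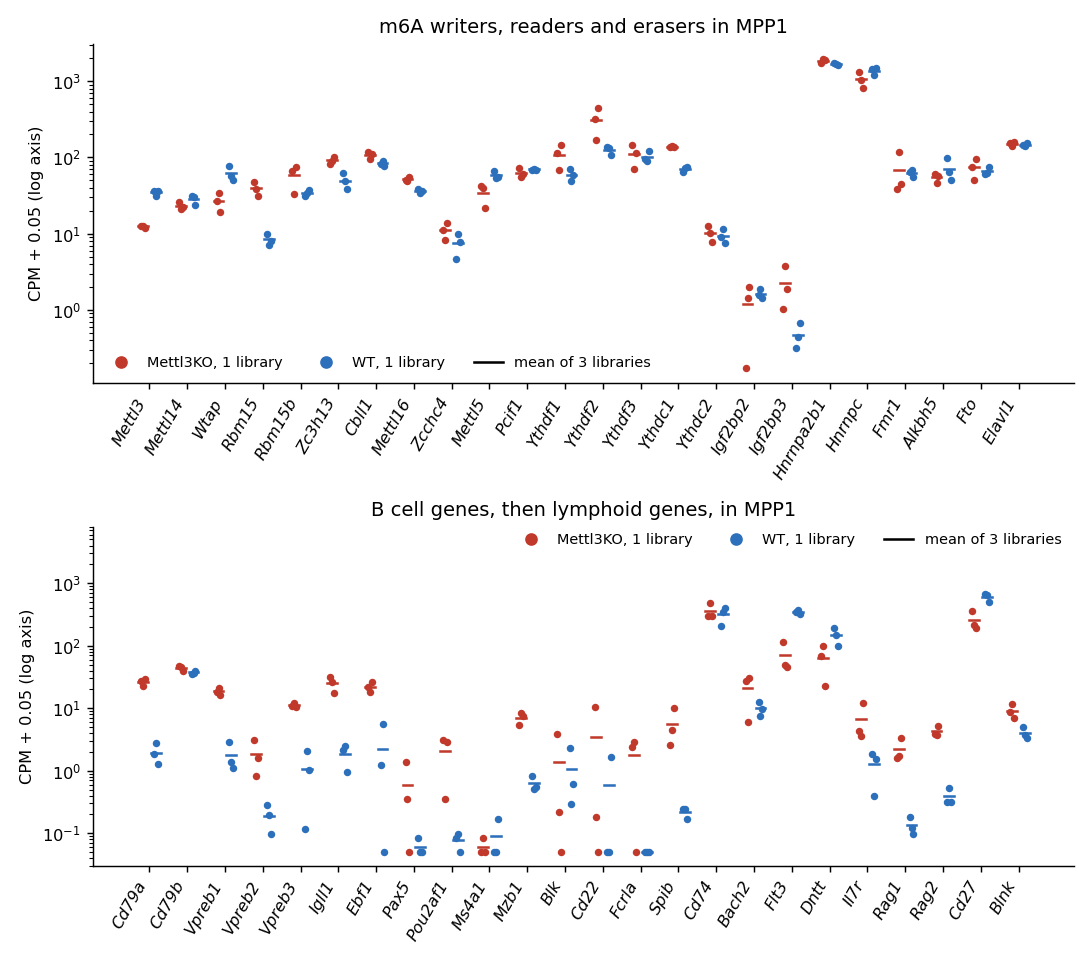
CPM + 0.05 (log axis) of each MPP1 library, Mettl3KO in red left of WT in blue, with a bar at the mean of 3 libraries, for the m6A genes (top) and for B cell and lymphoid genes (bottom). Mettl3 and Wtap sit lower and Rbm15, Ythdf2 and Ythdc1 higher in all 3 Mettl3KO libraries, and the 10 B cell genes that rose have higher means in Mettl3KO.

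Across the transcriptome, 1342 of 15545 genes were called (8.63%), of which 737 rose and 605 fell. At least a 2-fold change was fitted for 436 of the genes that rose and 345 of those that fell. In 1239 of the called genes the 3 Mettl3KO and 3 WT libraries did not overlap, against 22.3% of all genes tested. The median log2 fold change over all genes was 0.01. Without Mettl3KO replicate 2, 945 rose and 817 fell, and without Mettl3KO replicate 3, 560 rose and 376 fell. Leaving out WT replicate 1, 2 or 3 gave 680, 730 and 781 calls. A fit on the 6 MPP1 libraries alone, which estimates the spread from 4 residual degrees of freedom in place of 16, called 22 that rose and 11 that fell. Of 145 named genes called, 22 were called under every alternative, and no named gene changed direction in any.

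**Figure D3:**
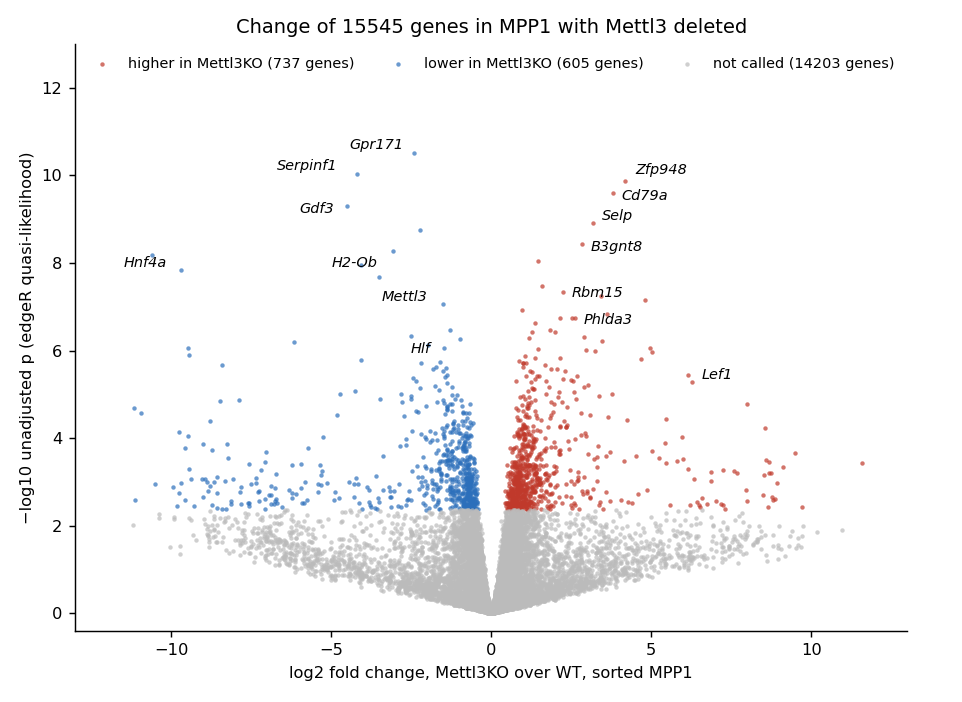
Log2 fold change (x axis, Mettl3KO over WT) against the negative log10 of the unadjusted p for the 15545 genes tested in MPP1. Red points are the 737 genes called higher in Mettl3KO, blue the 605 called lower and grey the rest; Gpr171 has the lowest p.

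The genes with the lowest p among those that rose had varied functions. Zfp948 (chr17:21567008-21588699, plus strand), a zinc finger protein, had 28.3, 32.5 and 24.8 CPM in Mettl3KO and 1.38, 2.07 and 1.26 CPM in WT (log2 fold change 4.18 ± 0.35, adjusted p = 7.1e-07). Selp (chr1:164115264-164150026, plus strand), the P-selectin that tethers leukocytes and platelets, had 423, 189.6 and 535 CPM in the 3 Mettl3KO libraries, against 45.2, 44.5 and 36.6 CPM in the 3 WT libraries. Replicate 2 was the lowest Mettl3KO library and still far above every WT library (log2 fold change 3.19 ± 0.30, adjusted p = 3.2e-06). B3gnt8 (chr7:25626654-25635100, plus strand), a glycosyltransferase that lengthens lactosamine chains on N-glycans, had 196, 165 and 129 CPM in Mettl3KO and 31.9, 22.3 and 15.1 CPM in WT (log2 fold change 2.82 ± 0.29, adjusted p = 7.0e-06). Other genes in this group were Chst12, a chondroitin sulfotransferase (log2 fold change 1.46 ± 0.16), Mfsd5, a molybdate transporter (1.595 ± 0.19), Tnfaip8l1 (3.42 ± 0.41), Grrp1 (4.800 ± 0.58) and Cdk9, the kinase that releases paused RNA polymerase II (0.95 ± 0.12). Cdk9 had 255, 255 and 244 CPM in Mettl3KO and 119.7, 138 and 134 CPM in WT, a small change with little spread.

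Genes with the lowest p among those that fell included several with low levels in Mettl3KO. Gpr171 (chr3:59096448-59101821, minus strand), a G protein-coupled receptor, had 39.7, 38.2 and 24.2 CPM in the 3 Mettl3KO libraries, against 149.7, 198 and 194 CPM in the 3 WT libraries. The groups were well apart and the call held under every alternative (log2 fold change -2.41 ± 0.19, adjusted p = 4.8e-07). Serpinf1 (chr11:75409769-75422701, minus strand), a secreted serpin known as PEDF, had 6.29, 5.58 and 3.19 CPM in Mettl3KO and 101, 92.8 and 83.7 CPM in WT (log2 fold change -4.21 ± 0.35, adjusted p = 7.1e-07). Gdf3 (chr6:122605403-122610087, minus strand), a ligand of the TGF-beta family, had 0.919, 1.28 and 0.868 CPM in Mettl3KO and 17.1, 28.8 and 24.3 CPM in WT (log2 fold change -4.52 ± 0.41, adjusted p = 1.5e-06). H2-Ob, a chain of the H2-O protein that restrains MHC class II peptide loading, had 9.54, 6.93 and 6.14 CPM in Mettl3KO and 61.6, 64.9 and 62.7 CPM in WT (log2 fold change -3.06 ± 0.32, adjusted p = 9.3e-06). Rcn3, a calcium-binding protein of the endoplasmic reticulum, fell with a log2 fold change of -2.23 ± 0.22, Klk8, a secreted protease, with -4.06 ± 0.44, and Ctla2a, a cathepsin inhibitor, with -3.499 ± 0.40. Ctla2a has a near copy, Ctla2b, whose reads the counting could have split. 

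Some genes were at 0 or at low levels in one genotype. Hnf4a (chr2:163506808-163572910, plus strand), the nuclear receptor of liver and gut, had 0, 0.101 and 0 CPM in the 3 Mettl3KO libraries, against 26.1, 19.8 and 30.9 CPM in the 3 WT libraries. Mettl3KO held 3 counts of it over the group, which gives a level 959.5-fold lower (95% counting interval 328 to 4656). Gcsam, a signalling adaptor of germinal centre B cells, was at 0 in all Mettl3KO libraries, against 4.07, 6.29 and 4.04 CPM in WT, at least 182-fold lower by a floor of 3 counts over the group. Treml1, a receptor of platelet granules, Slc27a6, a fatty acid transporter, and Dcstamp, which drives osteoclast fusion, were likewise at 0 in all 3 Mettl3KO libraries, at least 273-fold, 235-fold and 270-fold lower. In the other direction, Cidec, a lipid droplet protein, had 12.1, 9.26 and 7.41 CPM in Mettl3KO and 0 in all WT libraries, at least 362-fold higher, although DESeq2 did not call it. C2cd4b had 17.2, 40.1 and 29.7 CPM in Mettl3KO and 0, 0.293 and 0.0238 CPM in WT (log2 fold change 7.99 ± 1.38, adjusted p = 0.002), and Col20a1, a collagen chain, had 12.6, 31.2 and 32.6 CPM in Mettl3KO and 0.0329, 0.415 and 1.26 CPM in WT (log2 fold change 5.46 ± 1.04, adjusted p = 0.0033). Not every fit without 1 library kept the calls of Dcstamp (without any single library, adjusted p up to 0.096), Epha7 (without Mettl3KO 3, adjusted p up to 0.071), Sgip1 (without Mettl3KO 1, Mettl3KO 3, WT 1, WT 2 or WT 3, adjusted p up to 0.12), Mgam (without Mettl3KO 2, WT 1, WT 2 or WT 3, adjusted p up to 0.13), Dlg5 (without WT 1, adjusted p up to 0.055), Omg (without WT 1, adjusted p up to 0.055) and Ccr6 (without WT 1 or WT 2, adjusted p up to 0.059). In all, 63 called genes had no count in any Mettl3KO library and 22 none in any WT library. The Mettl3KO libraries also held a count for fewer genes of any kind. The numbers were 14729, 14481 and 13687 genes in Mettl3KO, against 15312, 14889 and 15320 in WT, and the part of this in the zeros was not tested.

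Of the called genes with the highest CPM, which also grows with transcript length, those that rose were Plec, Cbfa2t3, Arhgef2, Ncl and Slc38a10. Plec, which encodes the cytoskeletal linker plectin, had 4426, 3736 and 4542 CPM in Mettl3KO and 2089, 1977 and 1771 CPM in WT (log2 fold change 1.12 ± 0.21, adjusted p = 0.003). Cbfa2t3 (ETO2), a corepressor in the SCL and GATA complexes, had 983, 663 and 1936 CPM in Mettl3KO and 537, 573 and 560.3 CPM in WT (log2 fold change 1.100 ± 0.28, adjusted p = 0.019). Those that fell were H2afy, Gnas, Lmo2, Tmem176b and Cnbp. Gnas, the alpha subunit of the stimulatory G protein, had 3425, 3547 and 3246 CPM in Mettl3KO and 5676, 5010.5 and 4418 CPM in WT (log2 fold change -0.56 ± 0.11, adjusted p = 0.0037). H2afy, the histone variant macroH2A1, had 4558, 3792 and 3013 CPM in Mettl3KO and 5873, 6188 and 5689 CPM in WT (log2 fold change -0.64 ± 0.18, adjusted p = 0.028), from counts that were all even numbers. The calls of Cbfa2t3 (without Mettl3KO 3, WT 1, WT 2 or WT 3, adjusted p up to 0.15), Arhgef2 (without Mettl3KO 3, WT 1, WT 2 or WT 3, adjusted p up to 0.19), Slc38a10 (without Mettl3KO 1, Mettl3KO 3, WT 1, WT 2 or WT 3, adjusted p up to 0.17), H2afy (without Mettl3KO 3, WT 1, WT 2 or WT 3, adjusted p up to 0.11), Tmem176b (without Mettl3KO 2, Mettl3KO 3, WT 1, WT 2 or WT 3, adjusted p up to 0.12) and Cnbp (without Mettl3KO 2, Mettl3KO 3, WT 1, WT 2 or WT 3, adjusted p up to 0.13) did not hold in each fit that left out 1 library. The Plec, Cbfa2t3, Arhgef2, Slc38a10 and Cnbp calls were also lost after trends with transcript length and GC content were removed.

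Many B cell genes were higher in Mettl3KO. Of 17 B cell genes tested, 10 rose and none fell, with a median log2 fold change of 3.44 over the list and 0.01 over all genes. The shares were 58.8% and 0%, against 4.74% and 3.89% of all genes tested. The genes that rose include parts of the pre-B receptor, Cd79a of the B cell receptor and the transcription regulators Ebf1, Spib and Pou2af1. In the fits without 1 MPP1 library, 9 to 12 of the 17 rose, and all 10 genes kept their call except Ebf1 without WT replicate 1. DESeq2 and the replicate block also kept all 10. With limma quality weights 3 of the 10 were called, Cd79a, Vpreb1 and Igll1. On the 6 MPP1 libraries alone 2 were called, Cd79a and Igll1, and Fcrla was not tested. In HSC 1 of the 17 rose and 1 fell (3.66% and 2.49% of all genes), in MPP2 1 rose (1.51%; 0.965% of all genes fell), and in MPP4 7 rose (1.03%; 2.1% of all genes fell). The members that did not pass were Cd79b, Pax5, Ms4a1, Blk, Cd22, Cd74 and Bach2. Pax5, which commits cells to the B lineage, had 1.34, 0.304 and 0 CPM in Mettl3KO and 0.0329, 0 and 0 CPM in WT (adjusted p = 0.056), and Ms4a1, the CD20 of mature B cells, was at or near 0 in all libraries.

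To show the promoters of these genes, the RefSeq windows of 250 bases before the start site (GRCm38.p6) were searched, and 10 windows of 9 of the 10 genes were in the table (Ebf1 has a pair of them). The motifs were chosen after the genes' values were known: the E-box CAGGTG (or CACCTG on the other strand), bound by the E proteins that act in B lineage entry, and the core CCCNNGGG of EBF1 sites, which reads the same on both strands. The E-box lay in 5 of the 10 windows, against 17.2% of all 32851 windows, and CCCNNGGG in 2, against 11.8%. A longer EBF1 palindrome, CCCNNGGG with T before it and A after it, was searched as well and lay in 0 of the 10 windows, against 0.779% of all. Vpreb1 and Vpreb2 are near copies, so their windows are not separate observations, and a match is a string of letters and not a shown site. The windows with an E-box that lie outside the gene's GENCODE span follow, written 5′ to 3′ toward the start site, with matches to either motif in capitals. The Cd79a and Vpreb2 windows stop where the GENCODE gene begins, and the Vpreb1 window lies wholly within its GENCODE gene.
Cd79a, chr7:24897247-24897380, plus strand: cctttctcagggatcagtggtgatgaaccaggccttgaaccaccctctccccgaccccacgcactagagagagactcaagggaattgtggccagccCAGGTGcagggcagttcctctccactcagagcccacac
Igll1, chr16:16863986-16864235, minus strand: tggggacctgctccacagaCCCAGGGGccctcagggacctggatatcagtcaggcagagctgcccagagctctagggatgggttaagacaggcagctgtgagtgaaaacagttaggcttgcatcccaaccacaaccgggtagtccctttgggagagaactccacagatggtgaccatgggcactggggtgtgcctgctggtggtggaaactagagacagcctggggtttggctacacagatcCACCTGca
Vpreb2, chr16:17980315-17980427, plus strand: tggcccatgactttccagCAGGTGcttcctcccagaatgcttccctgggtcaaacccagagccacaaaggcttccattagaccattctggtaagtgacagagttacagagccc
Fcrla, chr1:170927584-170927833, minus strand: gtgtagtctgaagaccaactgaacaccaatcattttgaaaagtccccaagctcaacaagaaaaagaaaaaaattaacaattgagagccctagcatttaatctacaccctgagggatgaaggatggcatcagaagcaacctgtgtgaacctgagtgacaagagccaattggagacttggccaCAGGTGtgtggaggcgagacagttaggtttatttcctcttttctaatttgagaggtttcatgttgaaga

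Cd79a (chr7:24897381-24902197, plus strand), a signalling chain of the B cell receptor, had 27.2, 22.3 and 29.8 CPM in the 3 Mettl3KO libraries, against 1.77, 2.71 and 1.21 CPM in the 3 WT libraries. The mean was 26.4 ± 3.78 CPM in Mettl3KO and 1.898 ± 0.755 CPM in WT. Its 3 Mettl3KO libraries were close to each other and all far above WT (log2 fold change 3.798 ± 0.33, adjusted p = 9.7e-07), and the call held under every alternative. Igll1 (chr16:16860671-16863985, minus strand), the lambda5 part of the surrogate light chain, had 31.5, 26.1 and 17.4 CPM in Mettl3KO and 2.103, 2.46 and 0.903 CPM in WT (log2 fold change 3.78 ± 0.65, adjusted p = 0.0015). Vpreb1 (chr16:16868403-16870843, minus strand), its other part, had 18.2, 21.1 and 16.2 CPM in Mettl3KO and 2.79, 1.32 and 1.05 CPM in WT (log2 fold change 3.44 ± 0.48, adjusted p = 2.8e-04). No Mettl3KO library came down to the WT range for these 3 genes. Ebf1, a transcription factor that starts the B cell programme, had 21.4, 18.3 and 26.6 CPM in Mettl3KO and 1.18, 5.46 and 0 CPM in WT (log2 fold change 3.31 ± 0.86, adjusted p = 0.021). Mzb1, a chaperone of immunoglobulin assembly, had 5.37, 8.35 and 7.39 CPM in Mettl3KO and 0.789, 0.463 and 0.499 CPM in WT (log2 fold change 3.605 ± 0.46, adjusted p = 1.1e-04). Vpreb3 rose with a log2 fold change of 3.38 ± 0.59 (adjusted p = 0.0016), Vpreb2 with 3.701 ± 0.82 (0.009), and Spib, an ETS factor, with 5.03 ± 1.11 (0.0086), each without overlap. Pou2af1, a coactivator of octamer factors, had 3.06, 0.304 and 2.79 CPM in Mettl3KO and 0.0329, 0.0488 and 0 CPM in WT, where the 3 WT libraries held 3 counts, a level 84.5-fold higher (95% counting interval 28.6 to 412) with adjusted p = 8.0e-04. Fcrla, an intracellular Fc receptor-like protein, had 2.39, 2.84 and 0 CPM in Mettl3KO and 0 in all WT libraries, at least 60.6-fold higher over the group, although 1 Mettl3KO library was also at 0.

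The RNA of these 10 genes was present in MPP1 at a small part of its level in MPP4, the CD48+ gate beside it. Their summed level was 126, 117 and 122 CPM in Mettl3KO and 9.17, 14.9 and 4.800 CPM in WT, and in MPP4 it was 3402, 2122 and 4778 CPM in Mettl3KO and 1137, 919.7 and 741 CPM in WT. In MPP2 it was 314, 359 and 251 CPM in Mettl3KO and 179.8, 206 and 247 CPM in WT, and in HSC 3.53, 7.47 and 3.996 CPM in Mettl3KO and 4.65, 2.28 and 2.29 CPM in WT. The genes were chosen because they rose in these MPP1 libraries, so the gap of their sum in MPP1 is a description. Over all 17 B cell genes tested, the MPP1 sum was 518, 642 and 490.3 CPM in Mettl3KO libraries, against 266, 409 and 462 CPM in WT libraries, a smaller gap. Cd74, the invariant chain of MHC class II, which other cells also express, made up much of that sum. It had 302, 474 and 299 CPM in Mettl3KO and 206, 349.5 and 406 CPM in WT. The sums of the 10 genes did not overlap between the groups in MPP2 or MPP4, while those of HSC did. All 10 genes had their highest mean in MPP4, in Mettl3KO and in WT. The MPP1 mean was 1.07% to 14.6% of the MPP4 mean in Mettl3KO (median 3.601%) and 0% to 2.80% in WT (median 1.58%). Cd79a averaged 654 CPM in Mettl3KO and 207 CPM in WT in MPP4, and Igll1 846 and 118 CPM. Whether cells of the MPP4 gate, or committed B cell precursors, take part in the MPP1 values was not tested. Of genes of mature B cells, Ms4a1 had at most 0.119 CPM in any MPP1 library, and Cd22 had 10.2, 0.135 and 0 CPM in Mettl3KO and 0, 0 and 1.59 CPM in WT, with 1 Mettl3KO library far above the rest.

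**Figure D4:**
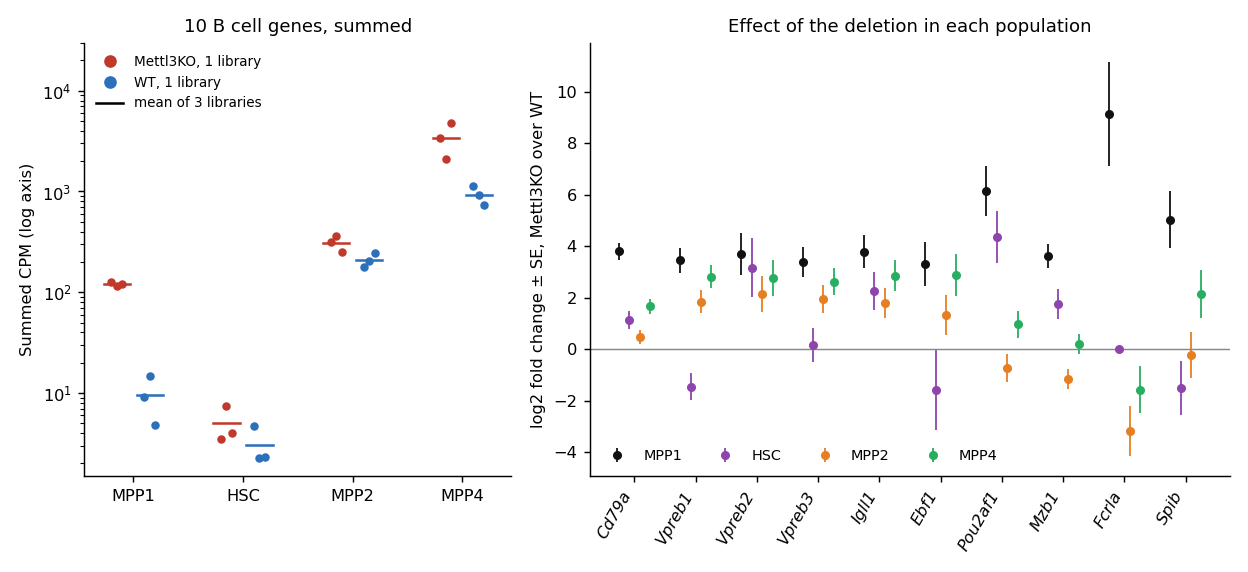
Left, summed CPM (log axis) of the 10 B cell genes that rose in MPP1, in each library of 4 populations, Mettl3KO in red left of WT in blue with bars at the means. Right, log2 fold change ± SE of each gene in MPP1, HSC, MPP2 and MPP4, where the genes were chosen by their MPP1 call, which favours high MPP1 values, and the fitted Fcrla value depends on WT libraries at 0.

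The wider lymphoid list moved in both directions. Of 23 genes of lymphoid priming and recombination, 7 rose and 4 fell (median log2 fold change 0.07). These are 30.4% and 17.4%, against 4.74% and 3.89% of all genes tested. The recombinase genes that cut immunoglobulin loci were among those that rose. Rag1 had 1.54, 1.69 and 3.26 CPM in Mettl3KO and 0.131, 0.0732 and 0.0475 CPM in WT (log2 fold change 4.68 ± 0.70, adjusted p = 5.2e-04) and Rag2 3.88, 3.72 and 5.18 CPM in Mettl3KO and 0.263, 0.488 and 0.261 CPM in WT (log2 fold change 3.64 ± 0.69, adjusted p = 0.003). Both were at low levels, without overlap of the groups. Il7r, the receptor of the main lymphoid growth factor, had 4.25, 3.55 and 11.98 CPM in Mettl3KO and 1.81, 0.341 and 1.497 CPM in WT (log2 fold change 2.45 ± 0.59, adjusted p = 0.016). Blnk, an adaptor of the pre-B receptor, had 8.55, 11.7 and 6.94 CPM in Mettl3KO and 4.99, 3.63 and 3.26 CPM in WT (log2 fold change 1.19 ± 0.36, adjusted p = 0.043), and Bcl11a, a zinc finger factor needed for lymphoid development, had 652, 382 and 586 CPM in Mettl3KO and 332, 302 and 298 CPM in WT (log2 fold change 0.80 ± 0.20, adjusted p = 0.019). Lef1 (chr3:131110471-131224356, plus strand), an HMG-box factor of Wnt signalling and of early B and T cells, stood outside the list and had the pattern of Cd79a, with 51.3, 29.4 and 57.4 CPM in Mettl3KO and 0.361, 0.707 and 0.665 CPM in WT (log2 fold change 6.28 ± 1.03, adjusted p = 9.9e-04). Its call held under every alternative. Ikzf3 was above 1 CPM in Mettl3KO replicate 3 alone and at 0 in all WT libraries, and Ly6d was high in Mettl3KO replicates 1 and 2 alone.

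Flt3 led the lymphoid genes that fell. Flt3, the receptor that marks lymphoid-primed progenitors, had 115, 49.7 and 45.7 CPM in the 3 Mettl3KO libraries, against 341, 370.4 and 324 CPM in the 3 WT libraries. All Mettl3KO libraries lay well below all WT libraries (log2 fold change -2.301 ± 0.43, adjusted p = 0.0026). Cd27, a co-stimulatory receptor of progenitors and lymphocytes, had 356, 213 and 193 CPM in Mettl3KO and 659, 642 and 495 CPM in WT (log2 fold change -1.24 ± 0.22, adjusted p = 0.002). Lck, the T cell kinase, had 39.1, 26.6 and 7.88 CPM in Mettl3KO and 82.2, 80.9 and 69.5 CPM in WT (log2 fold change -1.66 ± 0.37, adjusted p = 0.0085), and Il12a had 48.6, 80.1 and 30.4 CPM in Mettl3KO and 159, 104 and 141 CPM in WT (log2 fold change -1.34 ± 0.31, adjusted p = 0.012). Dntt, the terminal transferase of early lymphoid cells, had 67.8, 99.7 and 22.96 CPM in Mettl3KO and 193, 149 and 99.5 CPM in WT and was not called (log2 fold change -1.21 ± 0.48, adjusted p = 0.12). Single libraries decided the calls of Il7r (without Mettl3KO 3 or WT 2, adjusted p up to 0.08), Blnk (without Mettl3KO 1, Mettl3KO 2, WT 1, WT 2 or WT 3, adjusted p up to 0.14), Ikzf3 (without Mettl3KO 3, adjusted p up to 0.14) and Ly6d (without Mettl3KO 2, WT 1, WT 2 or WT 3, adjusted p up to 0.12). The Bcl11a call was lost as well without Mettl3KO 1, WT 2 or WT 3, where 5, 3 and 4 of the 23 lymphoid genes rose. Of 14 T and NK cell genes, 3 rose and 1 fell (21.4% and 7.14%, against 4.74% and 3.89% of all genes tested). Thy1 had 4.100, 5.58 and 4.43 CPM in Mettl3KO and 0.296, 0.3902 and 0.974 CPM in WT (log2 fold change 3.07 ± 0.57, adjusted p = 0.0028), and Lat, a T cell receptor adaptor, had 16.6, 20.8 and 14.6 CPM in Mettl3KO and 30.6, 41.4 and 38.8 CPM in WT (log2 fold change -1.09 ± 0.22, adjusted p = 0.0049), while Cd3g and Cd2 rose on at most 1.38 CPM in any library. Fits without 1 library ended the calls of Cd3g (without Mettl3KO 2, WT 1, WT 2 or WT 3, adjusted p up to 0.1) and Cd2 (without Mettl3KO 3, WT 1, WT 2 or WT 3, adjusted p up to 0.055).

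Stem cell genes were called in both directions. The list of stem cell identity held 34 genes, of which 2 rose and 4 fell (5.88% and 11.8%, against 4.74% and 3.89% of all genes tested). Its median log2 fold change was 0.19. Hlf (chr11:90336536-90390895, minus strand), a bZIP factor that marks stem and multipotent cells, had 181, 131 and 148 CPM in the 3 Mettl3KO libraries, against 487, 420.2 and 383 CPM in the 3 WT libraries. The groups were far apart and the call held under every alternative (log2 fold change -1.49 ± 0.21, adjusted p = 3.5e-04). Vldlr, a lipoprotein receptor, had 56.4, 52.1 and 72.8 CPM in Mettl3KO and 177, 241 and 164 CPM in WT (log2 fold change -1.68 ± 0.35, adjusted p = 0.0059). Hoxa9, a homeobox factor of stem cell self-renewal, had 168, 107 and 153 CPM in Mettl3KO and 234, 209.5 and 269.7 CPM in WT (log2 fold change -0.74 ± 0.20, adjusted p = 0.025), and Lmo2, the bridge of the SCL complex, had 3831, 2307 and 2866 CPM in Mettl3KO and 4906, 5102 and 4569.6 CPM in WT (log2 fold change -0.70 ± 0.17, adjusted p = 0.017). Those that rose were Socs2, a feedback inhibitor of cytokine signals, with 179, 161 and 132 CPM in Mettl3KO and 78.5, 30.9 and 37.4 CPM in WT (log2 fold change 1.68 ± 0.42, adjusted p = 0.018), and Mllt3, a self-renewal factor of the elongation complex, with 196, 198 and 211 CPM in Mettl3KO and 98.8, 107 and 127 CPM in WT (log2 fold change 0.86 ± 0.24, adjusted p = 0.028). Mecom, Meis1, Procr, Gata2 and Prdm16 were not called, with adjusted p of 0.76, 0.77, 0.79, 0.53 and 0.067. Leaving out 1 library ended the calls of Hoxa9 (without Mettl3KO 2, WT 1 or WT 3, adjusted p up to 0.093), Lmo2 (without Mettl3KO 2, Mettl3KO 3, WT 1 or WT 2, adjusted p up to 0.061), Socs2 (without WT 2 or WT 3, adjusted p up to 0.082) and Mllt3 (without Mettl3KO 3, WT 1 or WT 2, adjusted p up to 0.11).

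Receptors for cytokines changed in opposite directions. Of 21 tested, 5 rose and 1 fell, which was Flt3, described above (23.8% and 4.76%, against 4.74% and 3.89% of all genes tested). Csf2rb, the common beta chain for IL-3, GM-CSF and IL-5, had 90.1, 187 and 124 CPM in the 3 Mettl3KO libraries, against 40.1, 29.6 and 39.9 CPM in the 3 WT libraries, without overlap (log2 fold change 1.87 ± 0.29, adjusted p = 6.6e-04). Csf2rb2, its IL-3-specific near copy in mice, had 71.3, 71.6 and 68.3 CPM in Mettl3KO and 11.5, 7.49 and 18.7 CPM in WT (log2 fold change 2.48 ± 0.40, adjusted p = 9.6e-04), and the counting may have split reads between them. Il3ra, the IL-3 receptor alpha chain, had 28.4, 32.6 and 34.8 CPM in Mettl3KO and 11.2, 15.2 and 16.8 CPM in WT (log2 fold change 1.15 ± 0.23, adjusted p = 0.0047). Il2rg, the common gamma chain, rose with a log2 fold change of 0.56 ± 0.17 (adjusted p = 0.048). Csf3r, the G-CSF receptor, was higher without overlap but was not called (log2 fold change 0.74 ± 0.26, adjusted p = 0.074). Single libraries decided the call of Il2rg (without Mettl3KO 1, Mettl3KO 3, WT 1, WT 2 or WT 3, adjusted p up to 0.22).

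Of 23 selectins and other adhesion genes tested, 5 rose and 2 fell (21.7% and 8.7%, against 4.74% and 3.89% of all genes tested). Besides Selp, Itga6, an integrin chain that binds laminin, had 319, 280.1 and 347 CPM in Mettl3KO and 128, 148 and 133 CPM in WT (log2 fold change 1.21 ± 0.19, adjusted p = 7.1e-04). Itgb3, the beta3 integrin of platelets and stem cells, had 20.6, 15.6 and 71.5 CPM in Mettl3KO and 0.493, 8.51 and 7.84 CPM in WT (log2 fold change 2.67 ± 0.69, adjusted p = 0.022). Selplg, which encodes the P-selectin ligand PSGL-1, rose with a small change and little spread, with 311, 263 and 277 CPM in Mettl3KO and 208, 221 and 199 CPM in WT (log2 fold change 0.44 ± 0.12, adjusted p = 0.028). Pecam1, which rose with overlapping groups, had 184, 81.7 and 251 CPM in Mettl3KO and 81.04, 99.6 and 77.8 CPM in WT (log2 fold change 1.00 ± 0.30, adjusted p = 0.045). The sialomucins went the other way: Cd34 had 750.3, 339 and 571 CPM in Mettl3KO and 1432, 1478 and 1391 CPM in WT (log2 fold change -1.37 ± 0.27, adjusted p = 0.0041), and Emcn 25.4, 17.03 and 4.74 CPM in Mettl3KO and 59.6, 44.7 and 53.3 CPM in WT (log2 fold change -1.74 ± 0.42, adjusted p = 0.015). Single libraries ended the calls of Itgb3 (without Mettl3KO 3, adjusted p up to 0.13), Selplg (without Mettl3KO 1, WT 1, WT 2 or WT 3, adjusted p up to 0.099) and Pecam1 (without Mettl3KO 1, Mettl3KO 3, WT 1, WT 2 or WT 3, adjusted p up to 0.23).

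Levels of myeloid genes were set apart by a single library. Of 18 genes of granulocyte and monocyte priming, 2 rose, Csf2rb and Irf8, and none fell, although the median was 1.69. The shares were 11.1% and 0%, against 4.74% and 3.89% of all genes tested. Irf8, the factor of monocytes and dendritic cells, had 42.05, 65.5 and 30.6 CPM in Mettl3KO and 25.5, 11.4 and 11.6 CPM in WT (log2 fold change 1.51 ± 0.36, adjusted p = 0.014). Mpo, the neutrophil peroxidase, had 318, 4640.1 and 86.8 CPM in Mettl3KO and 327, 205 and 433 CPM in WT (adjusted p = 0.15), and Elane, the neutrophil elastase, had 107, 3322 and 24.8 CPM in Mettl3KO and 108, 89.9 and 257 CPM in WT (adjusted p = 0.16). Mettl3KO replicate 2 stood above all others for both, and the remaining Mettl3KO libraries lay within or below the WT range. None of the 10 mature neutrophil markers was called by edgeR, 2 had an unadjusted p under 0.05 and DESeq2 called 2, with a median of 3.53. Without Mettl3KO replicate 2, 2 of the 18 priming genes rose, and 1 did without WT replicate 2 or 3, 3 without Mettl3KO replicate 1 and 5 without Mettl3KO replicate 3. Single libraries ended the call of Irf8 (without WT 2 or WT 3, adjusted p up to 0.065).

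Some erythroid genes fell and some megakaryocyte genes rose. Of 20 erythroid genes, 1 rose and 4 fell (5% and 20%, against 4.74% and 3.89% of all genes tested). Their median was -1.20. Car2, a carbonic anhydrase, had 612, 346 and 594 CPM in the 3 Mettl3KO libraries, against 1354, 1206 and 1100.2 CPM in the 3 WT libraries, without overlap (log2 fold change -1.24 ± 0.21, adjusted p = 0.0015). Car1, its erythroid relative, had 26.6, 29.6 and 93.03 CPM in Mettl3KO and 371, 261 and 82.6 CPM in WT, with Mettl3KO replicate 3 inside the WT range (log2 fold change -2.26 ± 0.61, adjusted p = 0.027). Gata1, the master factor of red cells and platelets, had 4.05, 0.7096 and 0.0704 CPM in Mettl3KO and 25.9, 9.56 and 4.32 CPM in WT (log2 fold change -3.03 ± 0.84, adjusted p = 0.029), and Cnrip1 had 15.9, 10.5 and 5.53 CPM in Mettl3KO and 28.6, 34.6 and 22.5 CPM in WT (log2 fold change -1.42 ± 0.34, adjusted p = 0.013). Tfrc, the transferrin receptor that all growing cells use, rose (log2 fold change 1.01 ± 0.28, adjusted p = 0.029). Of 17 megakaryocyte and platelet genes, 4 rose, Selp, Itgb3, Fli1 and Nfe2, and Treml1 fell (23.5% and 5.88%, against 4.74% and 3.89% of all genes tested). Fli1, an ETS factor of megakaryocytes, had 199.9, 167 and 279 CPM in Mettl3KO and 128, 113 and 110.0 CPM in WT (log2 fold change 0.88 ± 0.23, adjusted p = 0.022), and Nfe2, the platelet-forming bZIP factor, had 793, 522 and 815 CPM in Mettl3KO and 397, 483 and 439 CPM in WT (log2 fold change 0.69 ± 0.20, adjusted p = 0.035). Vwf and Itga2b were not called (adjusted p = 0.25 and 0.26). Without Mettl3KO replicate 3, 1 of the 17 megakaryocyte and platelet genes rose and 3 fell. Without any other single library, 2 to 6 rose and 1 fell. Not every fit without 1 library kept the calls of Gata1 (without Mettl3KO 2, Mettl3KO 3 or WT 1, adjusted p up to 0.15), Car1 (without Mettl3KO 1, Mettl3KO 2, WT 1 or WT 2, adjusted p up to 0.12), Cnrip1 (without WT 2, adjusted p up to 0.056), Tfrc (without Mettl3KO 3, WT 1, WT 2 or WT 3, adjusted p up to 0.1), Itgb3 (without Mettl3KO 3, adjusted p up to 0.13), Fli1 (without Mettl3KO 3, WT 2 or WT 3, adjusted p up to 0.11) and Nfe2 (without Mettl3KO 1, Mettl3KO 3, WT 1, WT 2 or WT 3, adjusted p up to 0.13).

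Markers of other cell types gave 1 to 3 calls per list, where 4.74% of all genes tested rose and 3.89% fell. Of 12 macrophage markers, only Cd5l was called, and it fell, with 0.0249, 0.0338 and 0.0235 CPM in Mettl3KO and 9.43, 2.02 and 0.665 CPM in WT (adjusted p = 0.049). Mettl3KO held 3 counts of it, a level 131-fold lower (95% counting interval 44.6 to 640.0). Single libraries ended the call of Cd5l (without any single library, adjusted p up to 0.18). C1qa had 0.621, 4.43 and 1.08 CPM in Mettl3KO and 50.3, 3.19 and 0.808 CPM in WT, with WT replicate 1 far above the rest. The macrophage sum was 129.6, 166 and 127 CPM in Mettl3KO libraries, against 508, 75.1 and 71.001 CPM in WT libraries. Of 14 endothelial and stromal markers, Pecam1 rose and Emcn fell. Of 9 basophil and mast cell genes, Cma1 rose at 3.31 CPM or less, and of 13 dendritic cell genes, Irf8 rose and Flt3 and Siglech fell, the last at 0.296 CPM or less. Fits without 1 library also ended the calls of Cma1 (without WT 1, WT 2 or WT 3, adjusted p up to 0.069), Siglech (without Mettl3KO 1, Mettl3KO 2, Mettl3KO 3, WT 1 or WT 3, adjusted p up to 0.11), Irf8 (without WT 2 or WT 3, adjusted p up to 0.065) and Pecam1 (without Mettl3KO 1, Mettl3KO 3, WT 1, WT 2 or WT 3, adjusted p up to 0.23). The part of these cells in the other results was not tested.

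Phlda3 and Cdkn1a rose among genes of the p53 response. Of 26 p53 targets, these 2 rose and none fell (7.69% and 0%, against 4.74% and 3.89% of all genes tested). Phlda3, which restrains AKT, had 20.5, 18.2 and 16.3 CPM in the 3 Mettl3KO libraries, against 3.75, 2.32 and 2.99 CPM in the 3 WT libraries. Groups were apart by several-fold (log2 fold change 2.602 ± 0.34, adjusted p = 1.2e-04). Cdkn1a, the p21 inhibitor of cyclin-dependent kinases, had 37.8, 67.5 and 36.4 CPM in Mettl3KO and 16.8, 9.36 and 15.6 CPM in WT (log2 fold change 1.76 ± 0.35, adjusted p = 0.0042). Mdm2, Ccng1 and Bax were not called (log2 fold changes 0.11 ± 0.32, 0.21 ± 0.37 and 0.37 ± 0.27). In the BCL2 family of 17, Bcl2l1, which encodes the survival protein BCL-XL, rose (log2 fold change 0.67 ± 0.20, adjusted p = 0.039), while Bcl2, its relative, and Bid, a killer linking death receptors to mitochondria, fell. That is 5.88% and 11.8% of the family. Bcl2 had a log2 fold change -0.69 ± 0.20, adjusted p = 0.036, and Bid a log2 fold change -0.86 ± 0.18, adjusted p = 0.0073. The calls of Bcl2l1 (without Mettl3KO 1, Mettl3KO 3, WT 1, WT 2 or WT 3, adjusted p up to 0.13) and Bcl2 (without Mettl3KO 2, Mettl3KO 3, WT 1, WT 2 or WT 3, adjusted p up to 0.12) were lost when 1 library was left out.

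Growth and cell cycle genes were mixed. Myc had 1996, 1011 and 2403 CPM in Mettl3KO and 2162, 1966 and 1955 CPM in WT and was not called (log2 fold change -0.17 ± 0.20, adjusted p = 0.64), with all its counts even. Of 40 MYC targets, 4 rose and 4 fell (10% and 10%, against 4.74% and 3.89% of all genes tested). Ncl, the nucleolar protein nucleolin, had 1104, 844 and 1072 CPM in Mettl3KO and 634, 582 and 534 CPM in WT (log2 fold change 0.79 ± 0.13, adjusted p = 9.6e-04), and Rrs1, a ribosome assembly factor, had 137, 103 and 117 CPM in Mettl3KO and 61.1, 58.1 and 54.3 CPM in WT (log2 fold change 1.05 ± 0.15, adjusted p = 4.6e-04). Ddx21, a nucleolar helicase, rose with a log2 fold change of 0.64 ± 0.15, and Nop58, a core protein of box C/D snoRNPs, fell with a log2 fold change of -0.65 ± 0.15. Phb, Impdh2 and Cdk4 fell with log2 fold changes of -0.77 ± 0.20, -0.69 ± 0.20 and -0.57 ± 0.17. Of 28 G1/S genes, Fen1, a replication nuclease, rose with 439, 500.1 and 385 CPM in Mettl3KO and 259, 220.1 and 240.3 CPM in WT (log2 fold change 0.88 ± 0.13, adjusted p = 5.4e-04), as did E2f1 (log2 fold change 0.70 ± 0.18, adjusted p = 0.018). Cdk6, a G1 kinase, rose as well (log2 fold change 0.78 ± 0.23, adjusted p = 0.037). Of 24 G2/M genes, Mki67, Cenpe and Cenpf rose, each with overlapping groups and the highest value in the neutrophil-rich library, and without that library none of the 24 rose and 4 fell. None rose without WT replicate 2 or 3. Mki67 had 116, 302 and 91.7 CPM in Mettl3KO and 96.8, 48.6 and 45.8 CPM in WT (log2 fold change 1.41 ± 0.36, adjusted p = 0.02). Other calls that single libraries ended were those of Nop58 (without WT 2, adjusted p up to 0.05), Phb (without Mettl3KO 3, WT 1 or WT 2, adjusted p up to 0.095), Impdh2 (without Mettl3KO 2, Mettl3KO 3, WT 2 or WT 3, adjusted p up to 0.14), Cdk4 (without Mettl3KO 2, Mettl3KO 3, WT 1, WT 2 or WT 3, adjusted p up to 0.14), E2f1 (without Mettl3KO 3, WT 1 or WT 2, adjusted p up to 0.12) and Cdk6 (without Mettl3KO 3, WT 1, WT 2 or WT 3, adjusted p up to 0.22).

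Some interferon-related genes were called in these pIpC-treated mice. Of 33 interferon-stimulated genes, 3 rose and 1 fell (9.09% and 3.03%, against 4.74% and 3.89% of all genes tested). Their median was 0.01. Oas2, a sensor of double-stranded RNA, had 17.8, 55.9 and 60.1 CPM in Mettl3KO and 7.197, 9.71 and 16.1 CPM in WT (log2 fold change 2.02 ± 0.50, adjusted p = 0.017). Ifit1, which binds foreign RNA caps, rose (log2 fold change 1.09 ± 0.29, adjusted p = 0.023), Stat2, the interferon signal transducer, rose with overlapping groups (log2 fold change 0.99 ± 0.30, adjusted p = 0.044), and Isg20, an exonuclease, fell (log2 fold change -1.098 ± 0.32, adjusted p = 0.036). Of 14 immunity GTPases of the IRG and GBP families, 3 rose (21.4%): Igtp had 119.7, 93.1 and 152 CPM in Mettl3KO and 39.9, 61.2 and 60.4 CPM in WT (log2 fold change 1.18 ± 0.27, adjusted p = 0.01), Irgm1 201, 124 and 301 CPM in Mettl3KO and 97.4, 107 and 84.9 CPM in WT (log2 fold change 1.11 ± 0.26, adjusted p = 0.011) and Iigp1 129, 124 and 207 CPM in Mettl3KO and 65.7, 85.1 and 65.8 CPM in WT (log2 fold change 1.09 ± 0.34, adjusted p = 0.049). These families hold close copies. Of 3 tested Serpina3 genes, Serpina3f had 142, 70.4 and 176 CPM in Mettl3KO and 21.5, 18.6 and 25.9 CPM in WT (log2 fold change 2.56 ± 0.42, adjusted p = 9.6e-04) and Serpina3g 529, 429.7 and 556 CPM in Mettl3KO and 169, 185 and 235 CPM in WT (log2 fold change 1.36 ± 0.20, adjusted p = 4.9e-04), both without overlap and also near copies. Of 8 Gimap GTPases, which support lymphocyte survival, 3 rose (37.5%). Gimap4 had 78.1, 22.8 and 52.3 CPM in Mettl3KO and 11.2, 11.1 and 11.002 CPM in WT (adjusted p = 0.0019), Gimap9 103, 77.8 and 67.8 CPM in Mettl3KO and 38.4, 35.7 and 25.1 CPM in WT (log2 fold change 1.32 ± 0.22, adjusted p = 0.0013) and Gimap1 831, 476 and 697 CPM in Mettl3KO and 388, 407 and 378 CPM in WT (log2 fold change 0.77 ± 0.23, adjusted p = 0.043). The fits without 1 library ended the calls of Oas2 (without Mettl3KO 3, WT 1 or WT 2, adjusted p up to 0.073), Ifit1 (without Mettl3KO 3, WT 1, WT 2 or WT 3, adjusted p up to 0.13), Stat2 (without Mettl3KO 3, WT 1, WT 2 or WT 3, adjusted p up to 0.32), Isg20 (without Mettl3KO 1, Mettl3KO 3, WT 1 or WT 2, adjusted p up to 0.13), Igtp (without WT 1, adjusted p up to 0.058), Irgm1 (without Mettl3KO 3 or WT 3, adjusted p up to 0.074), Iigp1 (without Mettl3KO 3, WT 1, WT 2 or WT 3, adjusted p up to 0.19) and Gimap1 (without Mettl3KO 1, Mettl3KO 3, WT 1, WT 2 or WT 3, adjusted p up to 0.14).

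Ribosomal, mitochondrial and immediate early genes had medians below 0. None of 54 ribosomal protein genes was called by edgeR (22 had an unadjusted p under 0.05, and DESeq2 called 4, all lower), with a median of -0.63. Their sum was 12789, 17270.4 and 6926 CPM in Mettl3KO libraries, against 17262, 17156 and 21532 CPM in WT libraries, and Mettl3KO replicate 3 was lowest. Without Mettl3KO replicate 2, 14 of the 54 fell. Of 25 genes of oxidative phosphorylation, Ndufv1, Uqcrc2 and Atp5a1 fell, with log2 fold changes of -0.60 ± 0.15, -0.53 ± 0.14 and -0.44 ± 0.11. That is 12% of the list, against 3.89% of all genes tested. Of 22 immediate early genes, only Dusp2 fell, with 177, 132 and 176 CPM in Mettl3KO and 274, 385 and 788 CPM in WT (log2 fold change -1.58 ± 0.41, adjusted p = 0.022), and the list's sum was 3339, 7352 and 4983 CPM in Mettl3KO libraries, against 3699.8, 9199.5 and 22773 CPM in WT libraries. WT replicate 3 was the highest and the groups overlapped. Leaving out 1 library ended the calls of Ndufv1 (without Mettl3KO 3, WT 1 or WT 2, adjusted p up to 0.073), Uqcrc2 (without Mettl3KO 3, WT 1, WT 2 or WT 3, adjusted p up to 0.1), Atp5a1 (without WT 2 or WT 3, adjusted p up to 0.065) and Dusp2 (without Mettl3KO 2 or WT 3, adjusted p up to 0.13).

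The remaining lists held at most 3 calls each, where 4.74% of all genes tested rose and 3.89% fell. None of 15 ID factor and Notch genes, 11 heat shock genes or 11 snoRNA host genes was called by edgeR, with 3, 1 and 4 at an unadjusted p under 0.05 and 1, 0 and 0 called by DESeq2. Of 22 genes of the integrated stress and unfolded protein responses, Phgdh, a serine synthesis enzyme, fell (log2 fold change -0.65 ± 0.15, adjusted p = 0.011). Of 14 MHC class I and immunoproteasome genes, H2-T23 fell (log2 fold change -0.69 ± 0.17, adjusted p = 0.017). Of 12 genes of the MYC and MAX network, Mlxip rose (log2 fold change 0.54 ± 0.15, adjusted p = 0.031) and Mxd4 fell (log2 fold change -0.86 ± 0.26, adjusted p = 0.043). Of 14 CDK inhibitors, D cyclins and their kinases, Cdkn1a and Cdk6 rose and Cdk4 fell, and Socs2 alone rose among 15 SOCS and cytokine signalling genes. Oas2 alone rose among 17 genes of double-stranded RNA sensing and editing. Of the genes first named here, fits without 1 library ended the calls of H2-T23 (without WT 2 or WT 3, adjusted p up to 0.075), Mlxip (without Mettl3KO 3, WT 1 or WT 3, adjusted p up to 0.13) and Mxd4 (without Mettl3KO 2, WT 1 or WT 2, adjusted p up to 0.14).

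The called genes differed in transcript features, given here as a description. Genes that rose had a median transcript length of 3814.5 bases, against 2568.5 for those that fell and 3172.5 for all tested. Their median GC content was 52.3%, against 47.7% for those that fell and 49.9% for all. The GGAC core of the m6A motif had a median of 4.58 per kilobase for genes that rose, 3.63 for those that fell and 4.03 for all. It was counted on the longest transcript of each gene. GGAC is itself rich in G and C, and a difference beyond that of GC content was not tested. After trends with length and GC content were removed, 684 genes rose and 703 fell. Of 145 named calls, 20 were lost. Among the m6A, stem cell and growth genes these were Zc3h13, Mettl16, Mettl5, Mllt3, Mlxip, E2f1, Cdk6, Mki67, Cenpe and Cenpf. The others were Cd5l, Car1, Bcl2l1, Stat2, Uqcrc2, Plec, Cbfa2t3, Arhgef2, Slc38a10 and Cnbp.

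The effect of the deletion in MPP1 overlapped with that in the other populations. HSC had 956 called genes (6.15%), MPP2 384 (2.47%) and MPP4 487 (3.13%). Called in the same direction in HSC were 416 genes, which is 31.0% of the MPP1 calls and 43.5% of the HSC calls, and 5 were called in opposite directions. For MPP2 the number was 242 (18.03% of MPP1 and 63.0% of MPP2 calls), and for MPP4 133 (9.91% and 27.3%). In all 4 populations 12 genes rose, among them Zfp948, B3gnt8, Rbm15, Selp, Csf2rb, Ncl, Rrs1, Fen1 and Bcl2l1, and 28 fell, among them Mettl3, Hlf, Emcn, Gpr171, Serpinf1, Gdf3, Rcn3, Klk8 and Ctla2a.

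Where MPP1 differed was tested as the difference of its effect from that of another population. Against HSC, 6 genes passed (0.0386%), with 1607 at an unadjusted p under 0.05. The 5 with a higher effect in MPP1 (0.0322%) were Rag1, Rag2, Vpreb1, Blnk and Cd79a, all B cell or recombination genes, and the 1 with a lower effect (0.00643%) was Zfp133-ps. Rag1 in HSC had 0.0169, 0 and 0 CPM in Mettl3KO and 0.174, 0.0423 and 0.0236 CPM in WT (log2 fold change -3.01 ± 0.95, adjusted p = 0.065). Rag2 in HSC had 0.253, 0 and 0 CPM in Mettl3KO and 0.485, 1.52 and 0.756 CPM in WT, a fall there (log2 fold change -3.12 ± 0.75, adjusted p = 0.014). These low HSC values are part of both differences. Vpreb1 in HSC had 0.5402, 0.5097 and 0.0832 CPM in Mettl3KO and 1.51, 0.5496 and 1.16 CPM in WT, and was not called there (difference of log2 fold changes 4.90 ± 0.71, adjusted p = 0.0063). Blnk in HSC had 0.321, 0.05996 and 0.361 CPM in Mettl3KO and 2.89, 1.99 and 1.54 CPM in WT, a fall there (adjusted p = 2.6e-04) beside a rise in MPP1 (difference 4.24 ± 0.57, adjusted p = 0.0052). Cd79a in HSC had 0.928, 1.47 and 1.28 CPM in Mettl3KO and 0.678, 0.5496 and 0.425 CPM in WT (difference 2.67 ± 0.47, adjusted p = 0.034). With limma quality weights, or on the 12 libraries of both populations alone, no gene passed, and DESeq2 gave 148. Leaving out Mettl3KO replicate 1 or 2 of MPP1 gave 25 and 12 genes, Mettl3KO replicate 1 of HSC 18, and any other library 4 to 9.

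Against MPP2, 11 genes passed (0.0708%), with 1501 at an unadjusted p under 0.05. Cd79a in MPP2 had 61.2, 71.8 and 49.4 CPM in Mettl3KO and 39.4, 46.3 and 45.9 CPM in WT (difference 3.33 ± 0.43, adjusted p = 8.4e-04). Mzb1 in MPP2 had 22.4, 30.8 and 16.2 CPM in Mettl3KO and 30.5, 52.9 and 71.7 CPM in WT, with overlapping groups and no call there (difference 4.76 ± 0.60, adjusted p = 8.4e-04). Tfeb, a regulator of lysosome genes, had 181, 145 and 173 CPM in Mettl3KO and 61.5, 64.2 and 67.9 CPM in WT in MPP1 (log2 fold change 1.37 ± 0.18, adjusted p = 1.5e-04) and 66.4, 67.9 and 112 CPM in Mettl3KO and 73.2, 92.2 and 82.4 CPM in WT in MPP2 (difference 1.38 ± 0.25, adjusted p = 0.032). Gdf3 had 5.41, 7.47 and 10.8 CPM in Mettl3KO and 17.8, 21.7 and 28.4 CPM in WT in MPP2, a smaller gap (difference -2.99 ± 0.51, adjusted p = 0.022). The other genes were Pou2af1, Ccr6, Car3, Dus2, Hnf4a, Gcsam and Zfp133-ps. Every fit that left out 1 library moved this count, to 18 to 27 genes without a Mettl3KO library of MPP1 and to 3 to 7 without any other. The replicate block gave none.

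Against MPP4, 182 genes passed (1.17%), 100 with a higher and 82 with a lower effect in MPP1, and 2436 had an unadjusted p under 0.05. The replicate block within populations gave 1 gene, and the 12 libraries of both populations alone gave 7. Mmrn1, a platelet and endothelial protein, had 3.23, 2.16 and 4.13 CPM in Mettl3KO and 31.7, 53.01 and 76.8 CPM in WT in MPP1 (log2 fold change -4.08 ± 0.61, adjusted p = 5.2e-04), with all counts even, and in MPP4 36.7, 30.1 and 39.9 CPM in Mettl3KO and 12.6, 11.1 and 13.5 CPM in WT, where it was not called (difference -5.59 ± 0.82, adjusted p = 0.0056). H2-Ob had 57.8, 52.4 and 70.5 CPM in Mettl3KO and 90.1, 80.4 and 81.8 CPM in WT in MPP4, without overlap but not called (difference -2.58 ± 0.42, adjusted p = 0.011). Serpinf1 and Gpr171 had a larger fall in MPP1 than in MPP4 (differences -2.72 ± 0.44, adjusted p = 0.011 and -1.49 ± 0.25, adjusted p = 0.013). Spsb2, an adaptor of a ubiquitin ligase, was higher in Mettl3KO in MPP1 with 30.3, 34.7 and 20.4 CPM in Mettl3KO and 10.3, 10.998 and 11.2 CPM in WT, and in MPP4 it had 6.803, 9.84 and 5.998 CPM in Mettl3KO and 14.99, 12.7 and 13.7 CPM in WT (difference 2.26 ± 0.37, adjusted p = 0.011). Of the 182 genes, 128 were also called in MPP1 and 45 in MPP4. The counts against MPP4 ran from 20 to 436 when 1 library was left out, with 20 without WT replicate 3 of MPP4 and 436 without Mettl3KO replicate 2 of MPP1.

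**Figure D5:**
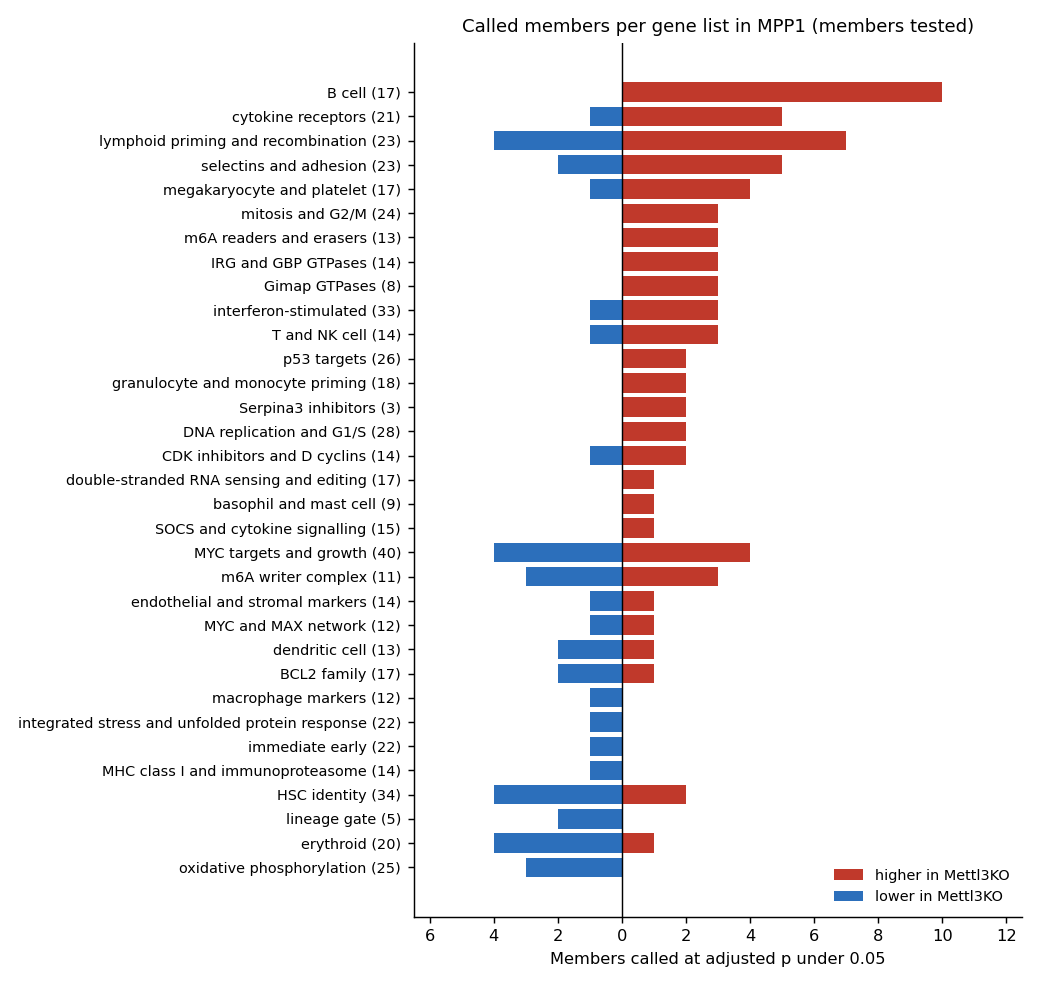
Number of members called in MPP1 (x axis, higher in Mettl3KO to the right, lower to the left) for each gene list with at least 1 call, with the number tested in brackets. B cell genes had 10 members higher and none lower, and HSC identity had 2 higher and 4 lower.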

How the data were processed

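RNA of 6 sorted MPP1 samples was measured by bulk RNA-seq, 3 per genotype, within 24 bulk libraries; the 6 10x libraries of the series were not used. The deposited table holds raw counts of 24063 gene rows per library, made by the authors. Per the submitters' processing notes, Bowtie, TopHat, Cell Ranger 2.2, mm10 and GRCh37 were used in the series; which step used which, the counting tool and its use of strand are not stated in the sources used here. Gene coordinates are from GENCODE vM21 (GRCm38). In the table, 27 rows carry date-like names and 166 of 11720 genes with a mean over 100 counts hold only even counts, the cause of which was not tested.

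Counts were scaled by TMM and fitted with edgeR 4.0.16 (R 4.3.3), 8 group means over 24 libraries with 16 residual degrees of freedom, after edgeR's filter on low counts. Alternatives used limma 3.58.1 and DESeq2 1.42.0, other scaling and filters, a replicate block, length and GC trends, fewer libraries and, chosen after seeing the data, halved even-only counts. The fit was also run on simulated data with the same design (50 genes per fold over 15264 genes). It recovered 32% of 2-fold and 78% of 4-fold rises, 26% of falls to 0.5 and 84% of falls to 0.25 of the level. There were 2 false calls among 15064 genes. Changed genes were drawn only from those above a mean of 5 CPM, so recovery at lower levels was not tested. No simulated library stood apart as Mettl3KO replicates 2 and 3 of MPP1 did, so the 2 false calls do not carry over to the real comparison. Totals of 29045705 to 42123802 counts set the counting precision, and intervals and floors (3 counts) cover counting error only.

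Members and gene lists were chosen with earlier results of these data known. Genes named are Mettl3, Myc and the gate genes, called members of each list (at most the 6 largest per direction) and members that complete a pair, the 10 largest rises and falls without overlap at 5 CPM or more, the 10 lowest p per direction, the 5 most abundant per direction, and the 10 lowest p of each difference between populations. Ms4a1, Mdm2 and others given as not called complete such groups. Some list members are not reported here and were left out of the list counts.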

Additional observations from a re-analysis of the deposited data

Results flagged for a closer look

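Each gene here passed a test of the difference between its log2 fold change in MPP1 and that in another population (edgeR, adjusted over all genes), and each value is the MPP1 effect minus the other. Of the genes named against HSC, the difference was 4.24 for Blnk, 4.90 for Vpreb1 and 2.67 for Cd79a. Against MPP2 it was 4.76 for Mzb1, 3.33 for Cd79a, 3.99 for Car3, a carbonic anhydrase, and 1.38 for Tfeb. Lower effects in MPP1 than in MPP2 were those of Gdf3 (-2.99) and Dus2, a tRNA dihydrouridine synthase (-1.98). Against MPP4 it was 1.82 for Sorbs3, an adhesion adaptor, 2.26 for Spsb2 and 3.41 for Mzb1. Sorbs3 was not called in MPP1 (adjusted p = 0.14), and in MPP4 it had 90.2, 70.3 and 73.3 CPM in Mettl3KO and 178, 239 and 199 CPM in WT. Lower effects than in MPP4 were those of Mmrn1 (-5.59), Serpinf1 (-2.72), H2-Ob (-2.58), Gpr171 (-1.49) and Gdf3 (-2.998).

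Some of these fitted values rest on groups with 0 or at most 3 counts and depend on the prior count, so they give no size. They are Gcsam against MPP2 (-10.14) and MPP4 (-10.22), Hnf4a against MPP2 (-6.67) and MPP4 (-7.44), Ccr6 against MPP2 (17.12) and Pou2af1 against MPP2 (6.87).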

How the results depend on the processing

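The main fit called 1342 genes in MPP1. DESeq2 called 2330, of which 1338 were among the 1342. For limma with quality weights the numbers were 869 and 695, and for the 6 MPP1 libraries alone 33 and 33. Leaving out 1 library gave 680 to 1762 calls, of which 635 to 1029 were among the 1342. The replicate block gave 613, of which 592 were among the 1342. Differences from HSC numbered 6, with 148 by DESeq2, 0 with quality weights, 0 on the 12 libraries alone and 4 to 25 without 1 library. Differences from MPP2 numbered 11, with 162 by DESeq2, 1 with quality weights, 5 on the 12 libraries alone, 0 under the replicate block and 3 to 27 without 1 library. Differences from MPP4 numbered 182, with 764 by DESeq2, 7 on the 12 libraries alone, 1 under the replicate block and 20 to 436 without 1 library. The fits on fewer libraries have fewer residual degrees of freedom and take the spread from those libraries alone. What caused any of these shifts was not tested. Mettl3 kept its call in every alternative but the 6 libraries alone (-1.48). Of 145 named calls, 145 were kept with DESeq2 size factors, 145 with the stricter filter, 130 with no filter, 144 by DESeq2, 90 with quality weights, 97 under the replicate block, 125 after length and GC trends were removed, and 90 to 128 without 1 library; none changed direction. Same-numbered MPP1 libraries of the 2 genotypes correlated at -0.202 to 0.00841 in their deviations from group means, so numbers were not taken as pairs. Same-numbered libraries of 1 genotype correlated across populations at -0.0382 to 0.528 (median 0.18, against -0.0869 for other numbers), and the best match had the same number in 29 of 36 cases, a hint from the data. A replicate block of genotype and number across populations gave 4 differences from HSC, 12 from MPP2 and 160 from MPP4, of which 4, 7 and 127 were among the 6, 11 and 182. Low counts limit the B cell, recombinase and T cell genes, many of which average under 3 CPM in WT.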
